A study of Homo sapiens with 4 samples.

Results

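The genes described here are the core of the integrated stress response, 10 genes of the 29286 listed in the deposited values. They were chosen by function, with earlier results of these data known, and matched to the files' Ensembl identifiers by symbol. They are the kinases of the translation factor eIF2alpha (EIF2AK1, EIF2AK2, EIF2AK3 and EIF2AK4), the phosphatase subunits PPP1R15A and PPP1R15B, the transcription factor ATF4, and the ATF4-induced genes DDIT3 (which encodes CHOP), TRIB3 and CHAC1. All 10 had a value in every library and passed the filter on low values. RNA was sequenced from HCT116, an established cell line of human colorectal carcinoma. The group labelled shWDR43 (2 libraries) carried a short hairpin against WDR43, a nucleolar protein of small-subunit ribosome assembly, and the group labelled shNC (2 libraries, shNC2 in the sample titles) carried a control hairpin. Cells of both groups had been infected with lentivirus for 48 h and then kept in puromycin for 3 days, so infection and drug selection were common to both. The labels give neither the number of hairpins or clones nor whether replicates were separate cultures. The p-values therefore reflect the spread between libraries alone, which may be technical.

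In the integrated stress response, each kinase senses a different stress and phosphorylates eIF2alpha, which lowers general translation but favours translation of ATF4 mRNA through its upstream open reading frames. ATF4 then switches on genes for amino-acid supply together with feedback genes. PPP1R15A and PPP1R15B guide protein phosphatase 1 to eIF2alpha and reverse the signal. Kinase activity, eIF2alpha phosphorylation and ATF4 protein are set largely after transcription and were not measured here. The values below are mRNA levels.

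The deposited values were read as FPKM, fragments scaled by transcript length and mapped total, and the read depth behind them is unknown. They summed to 393582 to 413758 per library. Libraries of 1 group were closest to each other, with an SD of the log2 difference across genes of 0.177 within shWDR43 and 0.245 within shNC, against 0.281 to 0.317 between groups. WDR43 itself was not analysed here, so the target gave no check of the knockdown labels. Of 8 fixed colorectal epithelial markers, 5 reached the filter, while CDH17, VIL1 and LGALS4 stayed under 1 FPKM. The summed level of these markers was 2500 and 2442 FPKM in shWDR43 against 1744 and 2065 FPKM in shNC. The 3 leukocyte markers with a value summed to at most 0.498 FPKM in any library. Of the fibroblast and endothelial markers, 5 had a value and summed to 5.92 to 8.003 FPKM, nearly all of it from COL1A1. Genes of the mitochondrial genome took 24.6% and 23.9% of all FPKM in shWDR43 against 26.8% and 25.5% in shNC. The part of the marker and mitochondrial differences in the results below was not tested.

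Cells with the WDR43 hairpin had lower mRNA levels of DDIT3, TRIB3 and CHAC1, at 0.493, 0.349 and 0.457 of their shNC means. None of the 4 kinases passed the test, and ATF4, PPP1R15A and PPP1R15B were lower by smaller amounts that did not pass. Thus 3 of 10 members fell by the limma test on log2(FPKM + 1), with p-values adjusted over 13303 genes and a threshold of 0.05, against a background of 1.47% of tested genes called lower and 6.26% called in either direction. No member rose, against 4.79% of tested genes called higher. An unadjusted p below 0.05 was found for 6 members, all of them lower in shWDR43, and for 3512 of the 13303 tested genes in either direction. The median log2 difference of the 10 members was -0.31, beside 0.05 over all tested genes. The groups did not overlap for any of the 10 members, 9 lower and 1 higher in shWDR43, but 57.3% of all tested genes also had groups that did not overlap, 21.5% lower and 35.8% higher. In bulk RNA, fewer cells that express a gene and less RNA per cell cannot be told apart.

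**Figure D1:**
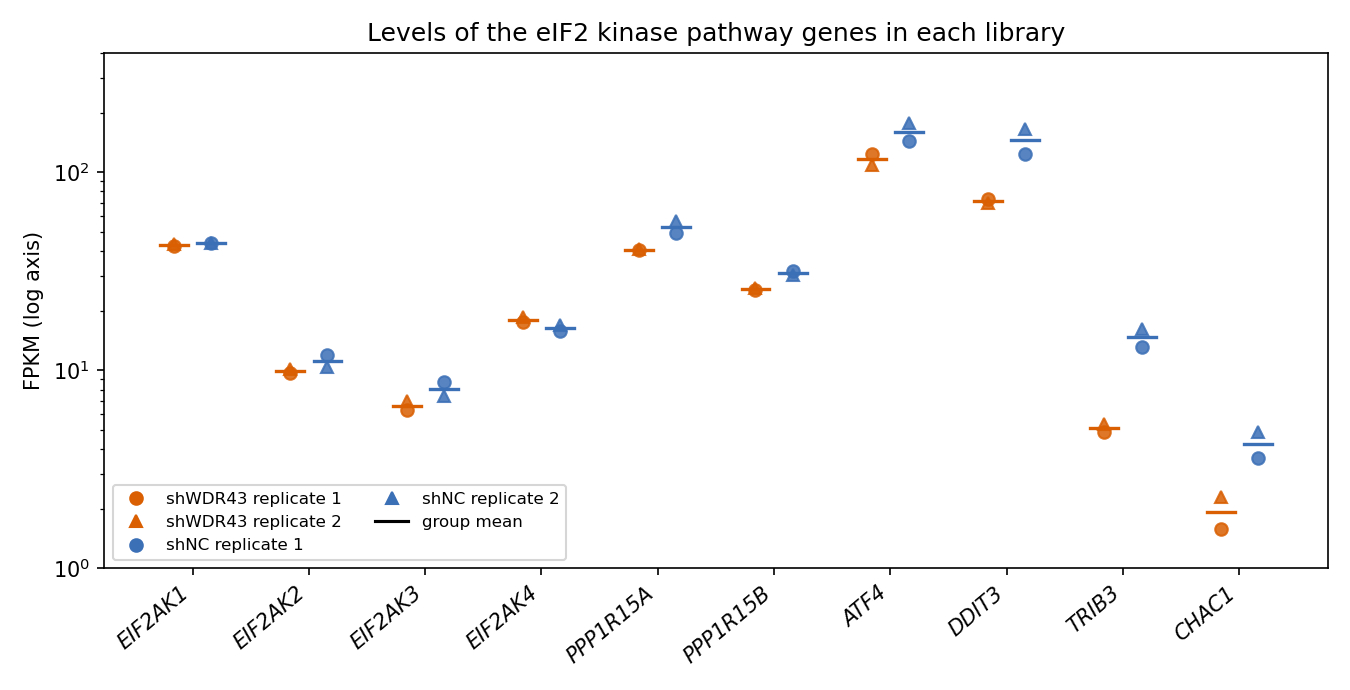
FPKM on a log axis for the 10 genes in each library, shWDR43 in orange and shNC in blue, with circles for replicate 1, triangles for replicate 2 and bars for group means (n = 2 per group). The 2 groups are farthest apart for TRIB3, with 4.91 and 5.35 FPKM in shWDR43 against 13.1 and 16.2 FPKM in shNC, and closest for EIF2AK1.

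Among the kinases, EIF2AK1 had the highest level per length in all 4 libraries. EIF2AK1 encodes HRI, which senses heme shortage and mitochondrial stress. It had 42.3 and 43.3 FPKM in shWDR43 against 43.7 and 44.0 FPKM in shNC. These values lie within 2 FPKM of each other, and the log2 difference was -0.04, with a 95% interval of -0.21 to 0.14 (limma adjusted p = 0.810). AIMP2, on the opposite strand, shares 532 of the 5550 exon bases of EIF2AK1, so reads there cannot be assigned with certainty.

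EIF2AK4 encodes GCN2, which senses uncharged tRNA and stalled ribosomes. It was the only member with a higher mean in shWDR43, at 17.5 and 18.6 FPKM against 15.7 and 17.02 FPKM in shNC. Both shWDR43 libraries were above both shNC libraries, by a margin smaller than the spread within either group. The log2 difference of 0.13 did not pass (95% interval -0.07 to 0.34, limma adjusted p = 0.380). GCN1, whose product is needed for GCN2 activation, rose to 31.6 and 31.5 FPKM in shWDR43, against 24.7 and 19.5 FPKM in shNC, a log2 difference of 0.50 ± 0.11 (SE, limma adjusted p = 0.0468). That call was lost with robust settings off, under both other scalings and without either shWDR43 library.

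EIF2AK3 encodes PERK, the kinase of the endoplasmic reticulum (ER) membrane. It had 6.33 and 6.97 FPKM in shWDR43 against 8.70 and 7.42 FPKM in shNC, the lowest level of the kinases. Both shWDR43 values were below both shNC values, by a gap narrower than the distance between the shNC libraries. The log2 difference was -0.24 (95% interval -0.50 to 0.01, limma adjusted p = 0.211), and it ran from -0.34 without shNC replicate 2 to -0.14 without shNC replicate 1. The antisense gene AC104134.1 shares 781 of the 5434 exon bases of EIF2AK3 but was at most at 0.231 FPKM. Another antisense gene, AC062029.1, shares 38 and was at most at 1.04 FPKM. HSPA5, the ER chaperone BiP that holds PERK inactive, fell to 459 ± 4.96 FPKM in shWDR43, against 777 ± 110 FPKM in shNC (mean ± SD, n = 2 per group). Its log2 difference was -0.75 (limma adjusted p = 0.0263), and that call was lost without either shWDR43 library.

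EIF2AK2 encodes PKR, the double-stranded RNA sensor, which is itself induced by interferon. It had 9.74 and 10.1 FPKM in shWDR43 against 11.9 and 10.4 FPKM in shNC. The higher shWDR43 value nearly met the lower shNC value, and the log2 difference of -0.15 did not pass (95% interval -0.38 to 0.08, limma adjusted p = 0.374). On the opposite strand, the pseudogene AC007899.1 shares 401 of the 10753 exon bases of EIF2AK2 but was at most at 0.155 FPKM. GPATCH11, also opposite, shares 35 and had 5.40 to 6.44 FPKM. Of 12 tested interferon response genes, ISG15 alone passed, and it rose to 60.1 and 58.7 FPKM in shWDR43, against 29.2 and 39.7 FPKM in shNC, a log2 difference of 0.78 (limma adjusted p = 0.0263). The median of that list was 0.07, and the ISG15 call was lost after upper-quartile scaling. Over all tested genes 4.79% were called higher.

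Summed over the kinases, the level was 75.8 and 79.0 FPKM in shWDR43 against 80.04 and 78.9 FPKM in shNC, with overlapping groups. Within that sum EIF2AK1 took 55.7% and 54.8% in shWDR43 against 54.6% and 55.8% in shNC. EIF2AK4 took 23.1% and 23.5% in shWDR43 against 19.6% and 21.6% in shNC, and EIF2AK3 took 8.34% and 8.81% in shWDR43 against 10.9% and 9.41% in shNC. EIF2AK2 took 12.8% in both shWDR43 libraries against 14.9% and 13.2% in shNC. The share of EIF2AK4 was thus higher and those of EIF2AK2 and EIF2AK3 lower in both shWDR43 libraries. With 2 libraries per group an exact permutation test of a single value cannot go below p = 0.333, so no test is given for shares or ratios.

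PPP1R15A, the stress-inducible subunit also called GADD34, had 40.7 and 40.8 FPKM in shWDR43 against 49.3 and 56.8 FPKM in shNC. The shWDR43 libraries nearly coincided, and both shNC libraries lay above them. The log2 difference was -0.37 ± 0.09 (SE), outside the test's threshold with all 4 libraries (limma adjusted p = 0.0572). It passed without shNC replicate 1 (-0.47, adjusted p = 0.00975), without shNC replicate 2 (-0.27, adjusted p = 0.0299) and with a filter at 5 FPKM (limma adjusted p = 0.0404).

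PPP1R15B, the constitutive subunit also called CReP, had 25.4 and 26.2 FPKM in shWDR43 against 31.9 and 30.2 FPKM in shNC. All of the shWDR43 values were below the shNC values, and the log2 difference of -0.26 ± 0.08 (SE) did not pass (limma adjusted p = 0.0940). Without shNC replicate 2 the difference was -0.30. The ratio of PPP1R15A to PPP1R15B within a library was 1.603 and 1.56 in shWDR43 against 1.55 and 1.88 in shNC, with overlapping groups. The genes of the catalytic subunits of protein phosphatase 1 had log2 differences of 0.07 to 0.20, with PPP1CA at 0.20 and PPP1CB at 0.13. By limma 0 of these 3 changed, and 0 had an unadjusted p below 0.05.

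ATF4 was the most abundant member in both groups. It had 124 and 109 FPKM in shWDR43 against 143 and 177 FPKM in shNC. Both shWDR43 libraries were below both shNC libraries, but the shNC libraries differed from each other by more than the nearest libraries of the 2 groups did. The log2 difference was -0.46 ± 0.13 (SE, 95% interval -0.75 to -0.16), with a limma adjusted p of 0.0715. Leaving out shNC replicate 1 gave -0.61 and leaving out shNC replicate 2 gave -0.30. Without shWDR43 replicate 1 the difference was -0.55 and without shWDR43 replicate 2 it was -0.36. The annotation also lists ATF4 pseudogenes. The one with values, ATF4P3, was at most at 0.311 FPKM, and the sources used here do not say how reads shared with ATF4 were assigned.

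**Figure D2:**
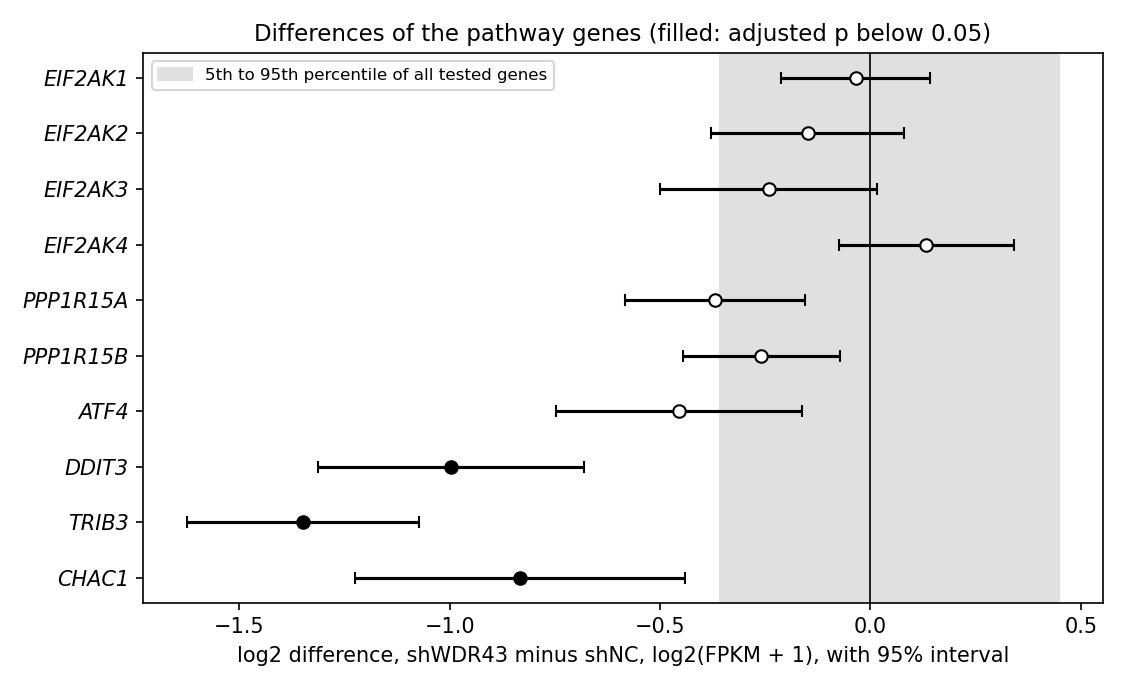
Log2 difference in log2(FPKM + 1), shWDR43 minus shNC, with its 95% interval from limma for each gene (n = 2 per group), filled where the adjusted p was below 0.05. The grey band spans the 5th to 95th percentile of all tested genes, -0.36 to 0.45, and DDIT3, TRIB3 and CHAC1 lie wholly to the left of it.

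DDIT3 encodes CHOP, a transcription factor induced by ATF4 and linked to cell death under prolonged ER stress. It had 73.1 and 69.7 FPKM in shWDR43 against 124 and 166 FPKM in shNC. The shWDR43 libraries were close together, while the shNC libraries differed by over 40 FPKM and both lay above them. The log2 difference was -0.997 ± 0.136 (SE, limma adjusted p = 0.0159), the 16th lowest of the 13303 tested genes. It ranged from -1.21 without shNC replicate 1 to -0.79 without shNC replicate 2.

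The level of DDIT3 is uncertain for a reason of position. DDIT3 lies on chromosome 12 at 57516588 to 57521737, minus strand, in GENCODE release 29 (GRCh38), and shares exon bases with 3 other genes. MARS (MARS1 in current naming), the cytosolic methionyl-tRNA synthetase gene, runs the other way and shares 355 of the 1307 exon bases of DDIT3. MBD6, also on the opposite strand, shares 58, and AC022506.1, on the same strand, shares 105. MARS1 also fell, with a log2 difference of -0.48 (limma adjusted p = 0.0230), as did MBD6, at 8.27 and 9.82 FPKM in shWDR43 against 17.8 and 17.1 FPKM in shNC, a log2 difference of -0.88 (limma adjusted p = 0.0106). The MARS1 call was lost without either shWDR43 library. The sources used here do not give the strand setting of the counting. Reads in the shared exon bases therefore cannot be assigned with certainty, and the part of this overlap in each difference was not tested.

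TRIB3 encodes a pseudokinase that is induced by ATF4 and CHOP and in turn restrains them. It lies on chromosome 20 at 362835 to 397559, plus strand, and no other annotated gene overlaps it. It had 4.91 and 5.35 FPKM in shWDR43 against 13.1 and 16.2 FPKM in shNC. Every shWDR43 value was under 6 FPKM and every shNC value over 13 FPKM. The log2 difference of -1.35 ± 0.12 (SE, limma adjusted p = 0.00360) was the 5th lowest of all tested genes. The fall held in each of the 4 fits that leave out a library, from -1.49 to -1.21.

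CHAC1 encodes a gamma-glutamyl cyclotransferase that degrades glutathione, and it is a known target of ATF4. It was the least abundant member, at 1.58 and 2.29 FPKM in shWDR43 against 3.60 and 4.87 FPKM in shNC. The shWDR43 libraries were both under 2.5 FPKM and the shNC libraries both above 3.5 FPKM, with a wide relative spread within each group. The log2 difference was -0.83 ± 0.17 (SE, limma adjusted p = 0.0351), the 29th lowest of all tested genes. The log2(FPKM + 1) scale understates the change of a gene this low, and with a pseudocount of 0.1 the difference was -1.10. CHAC1 lies on chromosome 15 at 40952962 to 40956519, plus strand, with no overlapping gene.

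**Figure D3:**
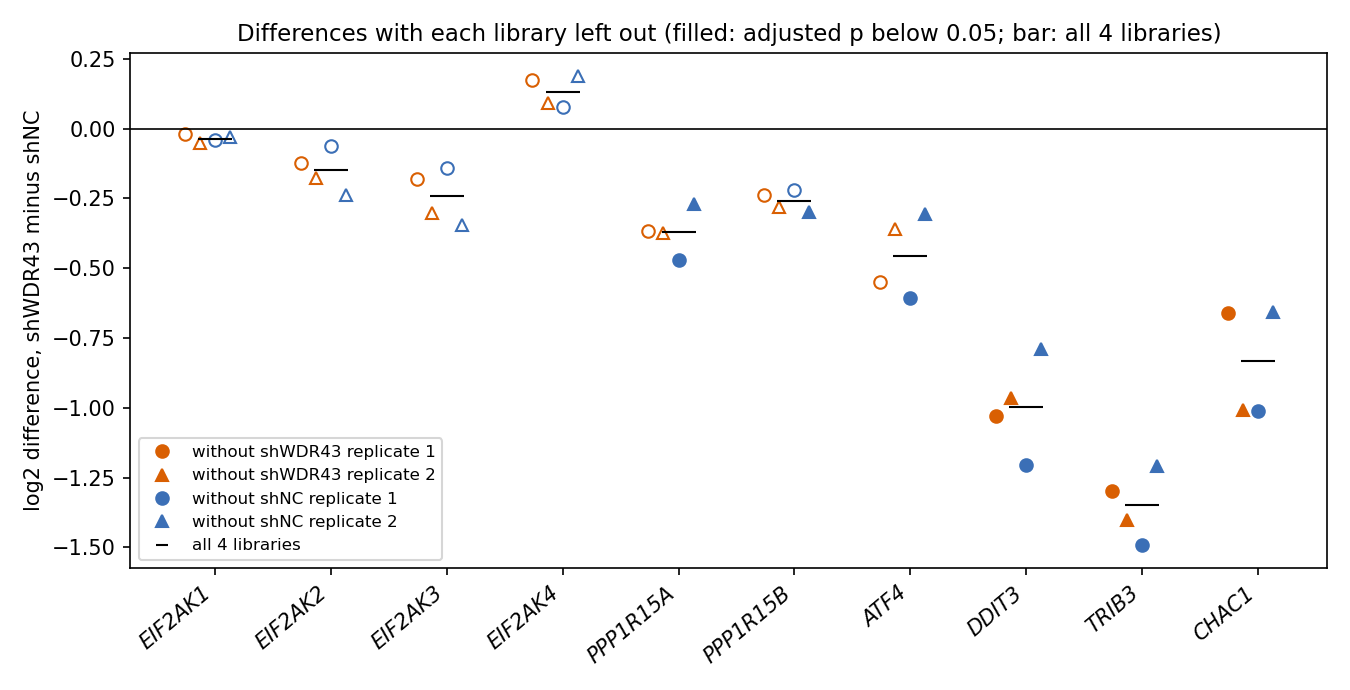
Log2 difference in log2(FPKM + 1), shWDR43 minus shNC, for each gene with all 4 libraries (black bar) and with each library left out (orange for shWDR43, blue for shNC, circles for replicate 1 and triangles for replicate 2, filled where the adjusted p was below 0.05). DDIT3, TRIB3 and CHAC1 are filled in all 4 positions, ATF4 and PPP1R15A only where an shNC library is left out. PPP1R15B is filled only without shNC replicate 2, and no kinase is filled. Each of these fits takes its spread from the group that keeps both libraries, so filling is no separate support.

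In a fit that leaves out a library, the residual spread comes only from the group that keeps both. Without an shNC library that is the shWDR43 pair, which lay closer together over all genes (SD 0.177 against 0.245 within shNC). Passing in such a fit is therefore no added support for ATF4, PPP1R15A, PPP1R15B or any other member. With all 4 libraries 3 members fell. Without the filter on low values limma called none of the 10 members. An unadjusted p below 0.05 was then found for 6 members and for 4351 of the 26938 genes tested. The adjusted p was then 0.0545 for TRIB3, 0.104 for DDIT3 and 0.140 for CHAC1.

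The ordering of levels also differed between groups. In shWDR43 the order by mean FPKM was ATF4, DDIT3, EIF2AK1, PPP1R15A, PPP1R15B, EIF2AK4, EIF2AK2, EIF2AK3, TRIB3 and CHAC1, and the ranges of neighbours did not overlap. In shNC the order was ATF4, DDIT3, PPP1R15A, EIF2AK1, PPP1R15B, EIF2AK4, TRIB3, EIF2AK2, EIF2AK3 and CHAC1. There ATF4 and DDIT3 overlapped, as did EIF2AK4 and TRIB3. The ranges of DDIT3 and ATF4 thus overlapped in shNC and were apart in shWDR43, although DDIT3 was below ATF4 within every library, and TRIB3 stood above EIF2AK2 and EIF2AK3 in shNC and below both in shWDR43.

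A ratio to ATF4 within each library does not depend on how libraries are scaled. DDIT3 reached 0.590 and 0.642 of the ATF4 level in shWDR43, against 0.864 and 0.937 in shNC. TRIB3 reached 0.0396 and 0.0493 of it in shWDR43, against 0.0915 and 0.0916 in shNC. CHAC1 reached 0.0128 and 0.0211 of it in shWDR43, against 0.0251 and 0.0275 in shNC. All 3 genes were thus lower relative to ATF4 mRNA in both shWDR43 libraries. The share of all tested genes that separate in their ratio to ATF4 was not counted. The 3 ratios have the same denominator and restate the differences above, with the same uncertainty in the level of DDIT3. PPP1R15A did not separate in this way, with 0.328 and 0.376 in shWDR43 against 0.344 and 0.321 in shNC. The ratio of TRIB3 to DDIT3 was 0.0671 and 0.0767 in shWDR43 against 0.106 and 0.0977 in shNC.

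**Figure D4:**
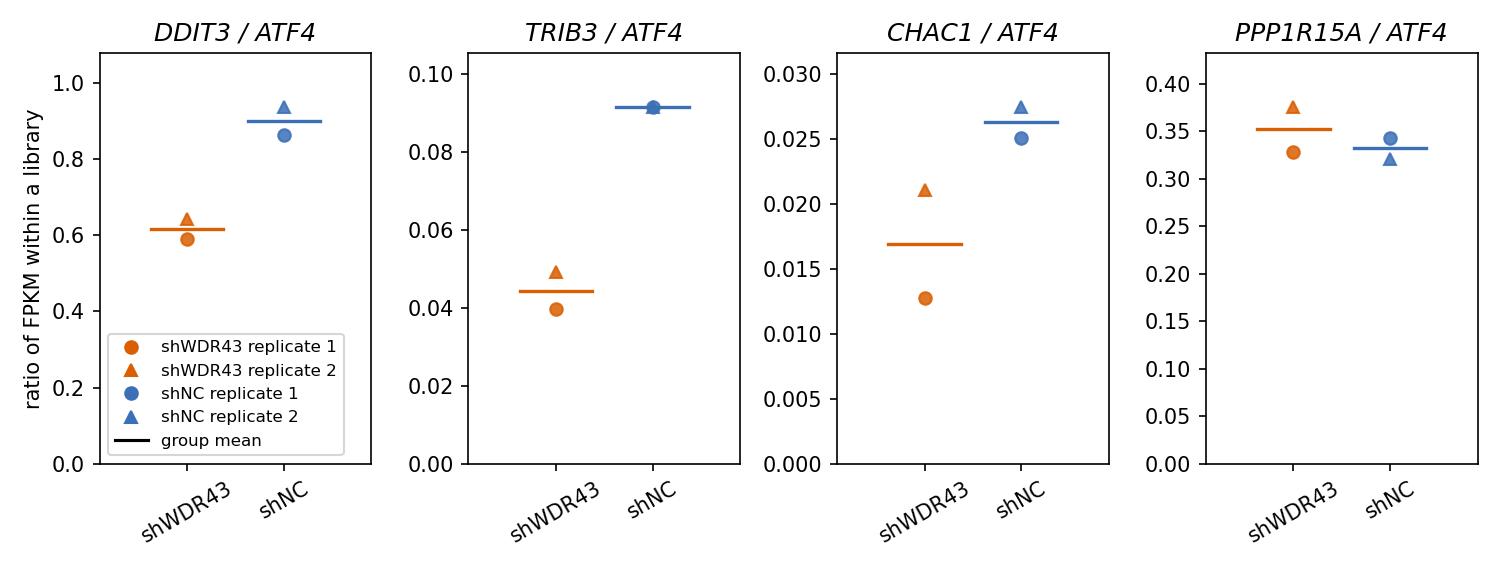
Ratio of the FPKM of DDIT3, TRIB3, CHAC1 and PPP1R15A to that of ATF4 within each library, shWDR43 in orange and shNC in blue, with circles for replicate 1, triangles for replicate 2 and bars for group means (n = 2 per group). The first 3 ratios are lower in both shWDR43 libraries and the PPP1R15A ratio overlaps between groups. The share of all tested genes that separate in such a ratio was not counted.

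Promoter sequence was examined for letters of known stress elements, since several members were lower together. RefSeq windows (GRCh38.p14) of 250 bases before to 50 after a gene's start were found for 9 members, with 13 windows in all. The letters searched on both strands were TGATGNAA, the core of the C/EBP-ATF composite element that ATF4 binds, TGACGTCA, the cAMP response element, and the ER stress element, which is CCAAT and CCACG with 9 bases of any kind between them. TGATGNAA was present in 3.62% of 35116 windows of the same length and in the windows of CHAC1 and PPP1R15B. TGACGTCA was present in 1.85% of all windows and in that of PPP1R15A. The ER stress element was present in 0.0769% of all windows and in none of the members' windows. The 3 matches are shown with 11 bases on either side, 5′ to 3′ along the gene's strand, the matched letters in capitals.
CHAC1 (chr15:40953251-40953280, plus strand): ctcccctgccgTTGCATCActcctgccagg
PPP1R15B (chr1:204412026-204412055, minus strand): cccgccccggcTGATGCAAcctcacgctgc
PPP1R15A (chr19:48872352-48872381, plus strand): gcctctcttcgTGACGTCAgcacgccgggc

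The CHAC1 match begins 209 bases before the RefSeq start of that window and reads on the opposite strand, as the reverse complement of TGATGCAA. That of PPP1R15B begins 227 bases before the start on the gene's own strand, and the palindrome of PPP1R15A begins 58 bases before the start. The RefSeq start of CHAC1 lies inside the GENCODE release 29 gene, and the 250 bases before it hold 0 bases free of annotated exon, so this match lies within annotated exon and not before the GENCODE start. The windows of DDIT3 and TRIB3, which were also lower in shWDR43, held none of the searched letters. A match is a description of the letters and no match says only that they are not in this window. DDIT3 and MBD6, both lower in shWDR43, lie on opposite strands. Between the RefSeq start of DDIT3 used for its window and the GENCODE start of MBD6 lie 192 bases with no annotated exon, shown 5′ to 3′ along the DDIT3 strand because the levels of both genes are uncertain here. The GENCODE gene DDIT3 begins farther upstream, inside MBD6, so it spans these bases and overlaps MBD6 over 1028 bases.
DDIT3 to MBD6 (chr12:57520518-57520709, minus strand): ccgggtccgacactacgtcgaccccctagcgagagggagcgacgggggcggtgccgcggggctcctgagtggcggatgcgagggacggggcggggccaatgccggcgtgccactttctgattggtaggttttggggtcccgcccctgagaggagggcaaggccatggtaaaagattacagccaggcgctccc

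Genes with the pattern most like each ATF4-axis member were sought among 8207 tested genes whose mean reached 5 FPKM. The measure was the Euclidean distance between log2(FPKM + 1) values centred on each gene's mean over the 4 libraries. Nearest to TRIB3 was ASNS, the asparagine synthetase gene, at a distance of 0.0492, with 41.5 and 43.01 FPKM in shWDR43 against 101 and 123 FPKM in shNC. It was followed by ENSG00000226744, which is named by its identifier alone, at 0.402 and AARS1, the cytosolic alanyl-tRNA synthetase gene, at 0.422. Nearest to DDIT3 were AARS1 at 0.203, the long noncoding RNA gene EPIC1 at 0.239 and PHGDH, the first enzyme of serine synthesis, at 0.242. Nearest to CHAC1 were the ribosomal protein pseudogene RPL36AP37 at 0.196, HSPA5 at 0.251 and XBP1, a transcription factor of the unfolded protein response, at 0.260. Nearest to ATF4 were the troponin gene TNNT1 at 0.0279, EIF2S2, which encodes the beta subunit of eIF2, at 0.0334 and HOOK2, a microtubule adaptor gene, at 0.0512. With 4 libraries many genes can share a pattern, and the distances are a description.

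The other genes of the pathway were read from 11 lists, also chosen with earlier results of these data known. These held 140 distinct genes, and 126 passed the filter. With limma 29 of the 126 changed, 7 higher and 22 lower, against 1 when the filter on low values was dropped. Over all tested genes 6.26% were called, 4.79% higher and 1.47% lower. A call of 1 gene in a short list is therefore given as a value of that gene alone. The subunits of eIF2 and its exchange factor eIF2B, with the GTPase activator EIF5, had 1 of 9 genes higher and 1 lower by the test, with a median log2 difference of 0.10. EIF2S1, which encodes eIF2alpha, the substrate of the kinases, rose to 28.5 and 28.4 FPKM in shWDR43, against 20.3 and 22.0 FPKM in shNC, a log2 difference of 0.41 ± 0.08 (SE, limma adjusted p = 0.0347). EIF5 fell to 25.2 and 21.6 FPKM in shWDR43, against 34.2 and 32.1 FPKM in shNC (log2 difference -0.49, limma adjusted p = 0.0345). EIF2S2, the beta subunit gene, had 49.2 and 44.1 FPKM in shWDR43 against 56.7 and 71.3 FPKM in shNC, and its log2 difference of -0.44 did not pass (limma adjusted p = 0.0701). The EIF5 call was lost without shWDR43 replicate 2. The EIF2S1 call was lost with the replicate block, under both other scalings and without either shWDR43 library.

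Of 10 regulators of the kinases, GCN1 rose and HSPA5 fell, as given above, and the list median was -0.05. Of 9 tested bZIP relatives and partners of ATF4 and CHOP, only NFE2L2, the gene of the antioxidant regulator NRF2, passed. It fell to 48.2 and 47.4 FPKM in shWDR43, against 61.2 and 64.9 FPKM in shNC (log2 difference -0.39, limma adjusted p = 0.0354). That call was lost after median-ratio scaling, with the replicate block and without either shWDR43 library. None of 7 tested genes of the Tribbles family and ATF4 degradation passed with limma, and 0 had an unadjusted p below 0.05, CUL1 and FBXW11 having the smallest p-values at log2 differences of -0.20 and 0.14. None of 8 factors of upstream open reading frames and re-initiation passed with limma. Of these 8, 3 had an unadjusted p below 0.05, beside 3512 of all 13303 tested genes. The smallest p-values among these 8 were those of EIF2A and DENR, with log2 differences of -0.32 and -0.26.

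Among glutathione genes related to CHAC1, 1 of 7 rose and 1 fell, with a median log2 difference of 0.31. SLC7A11, the cystine transporter gene, fell to 1.88 and 2.25 FPKM in shWDR43, against 7.31 and 6.16 FPKM in shNC, a log2 difference of -1.33 (limma adjusted p = 0.00513). GSR, the glutathione reductase gene, rose to 67.8 and 69.9 FPKM in shWDR43, against 53.2 and 51.9 FPKM in shNC, a log2 difference of 0.38 (limma adjusted p = 0.0351). The GSR call was lost with the replicate block, under both other scalings and without either shWDR43 library.

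Stress genes attributed to ATF4 or CHOP went both ways, with 3 of 17 tested that rose and 3 that fell, and a median log2 difference of 0.04. STC2, a secreted glycoprotein gene, XPOT, the tRNA exporter gene, and SESN2, a stress-induced regulator of mTORC1, had log2 differences of -0.50, -0.42 and -0.53. BBC3, which encodes the pro-apoptotic protein PUMA and is also a p53 target, rose by 0.49, to 12.4 FPKM in both shWDR43 libraries, against 8.48 and 8.57 FPKM in shNC. The other two that rose, GDF15 at 0.58 and BCL2L11 at 0.47, are named after their values were seen. After median-ratio scaling 1 rose and 3 fell, after upper-quartile scaling 0 rose and 3 fell, and without shWDR43 replicate 1 the count was 1, which fell. Without shWDR43 replicate 2 limma called 0, with 6 at an unadjusted p below 0.05.

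The amino-acid targets of ATF4 included 27 tested genes, of which 11 fell. By limma 0 rose, and 1 was higher at an unadjusted p below 0.05. The median log2 difference was -0.29. ASNS, AARS1, SLC7A11 and CARS1, the cysteinyl-tRNA synthetase gene, had the smallest p-values. Their log2 differences were -1.38, -0.94, -1.33 and -0.75. The count that fell was 9 to 13 in the fits that leave out a library, with 2 that rose without shNC replicate 2, and 9 and 10 after the other scalings. The IRE1 and ATF6 arms of the unfolded protein response included 22 tested genes, of which 6 fell. By limma 0 rose, 1 was higher at an unadjusted p below 0.05, and the median was -0.26. Besides HSPA5 and XBP1 these included HERPUD1 at -0.80 and HSP90B1 at -0.54. That count was 2 after median-ratio scaling, 4 after upper-quartile scaling, 2 without either shWDR43 library, 10 without shNC replicate 1, and 9 with 1 that rose without shNC replicate 2.

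**Figure D5:**
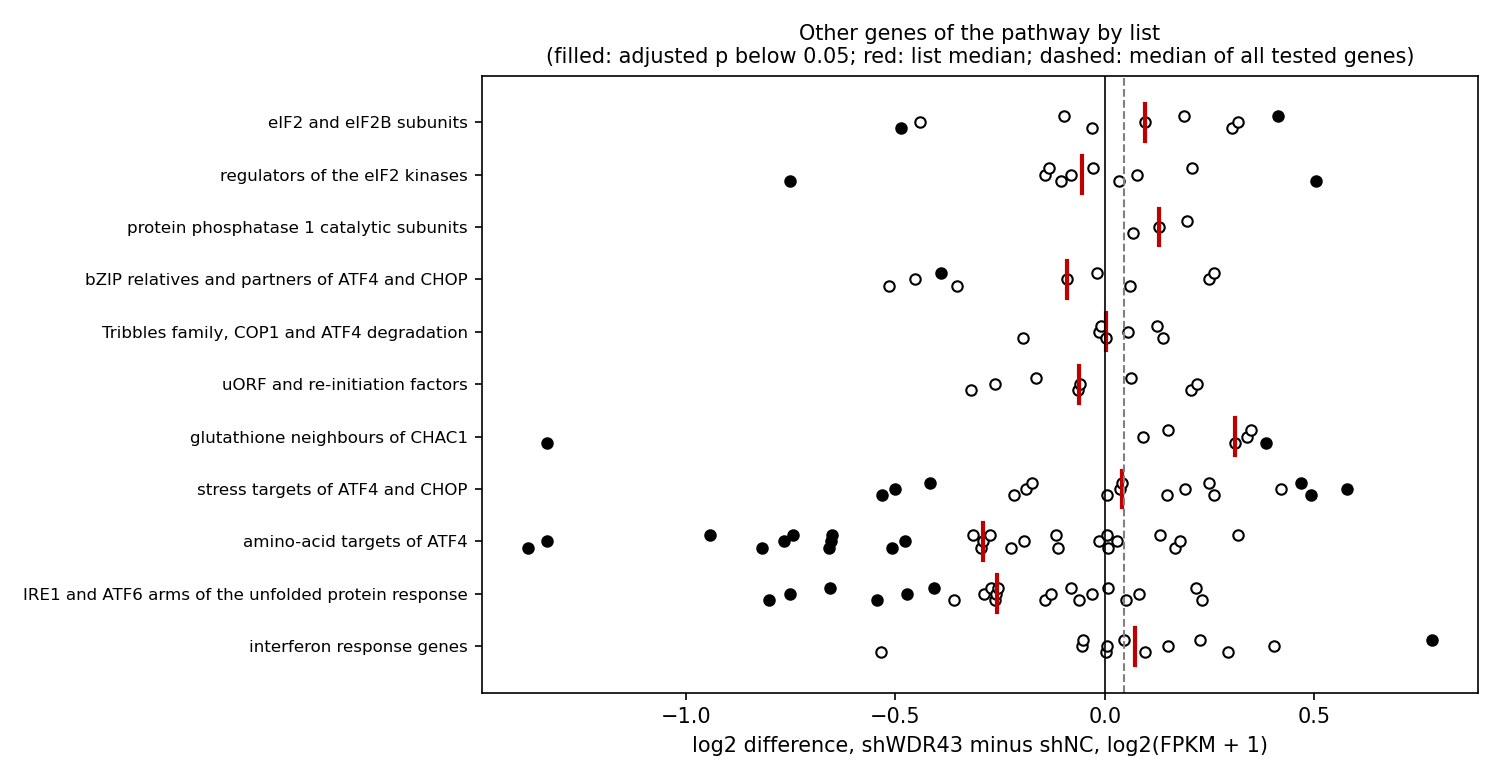
Log2 difference in log2(FPKM + 1), shWDR43 minus shNC, for each tested gene of the 11 lists, filled where the adjusted p was below 0.05, with list medians in red and the median of all tested genes, 0.05, as a dashed line. The filled points of the amino-acid and unfolded protein response lists all lie left of 0, while those of the stress target list lie on both sides.

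Across all tested genes 637 were higher and 196 lower in shWDR43, a split that was 311 to 141 with median-ratio scaling and 191 to 180 with the upper quartile. No member changed sign in any of 119 alternative fits of a member. Because the groups of every member did not overlap, only the scalings could have changed a sign. DDIT3, TRIB3 and CHAC1 passed under both scalings, with log2 differences of -1.02, -1.37 and -0.85 after median-ratio scaling and of -1.07, -1.41 and -0.89 after upper-quartile scaling. CHAC1 was close to the threshold there, with a limma adjusted p of 0.0462 after median-ratio and 0.0475 after upper-quartile scaling.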

How the data were processed

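The 4 deposited tables hold 1 value per Ensembl gene and library. The unit of the deposited values was taken to be FPKM from the values themselves, and TPM over part of the genes remains possible. The tools, per the submitters' processing notes, were HISAT2, RSEM, edgeR, Trimmomatic, FastQC and CASAVA 1.8 with the GRCh38 build, in no stated role or order. The sources used here give neither the annotation release nor the strand setting. 1 blank entry was left out, and 29170 of 29286 genes had a symbol. Low values showed no whole-read steps (the fullest 1% window of ratios held 1.01% of genes), so the depth is unknown. Genes with at least 1 FPKM in at least 2 libraries (13303) were fitted with limma 3.58.1 (R 4.3.3) on log2(FPKM + 1), group as the only term, and a trended, robust empirical Bayes step. Two-sided p-values were Benjamini-Hochberg adjusted, with a threshold of 0.05. The model was also run on data simulated from its own fit, so its error rate was not checked. Changes were added there on the log2(FPKM + 1) scale, only to genes averaging above about 5 FPKM. Called were 3.4% of 1.25-fold, 51.8% of 1.5-fold and 96.8% of 2-fold changes. Members that did not pass may thus differ by the smaller amounts. The rates do not cover lower genes such as CHAC1. Alternatives were a pseudocount of 0.1, no filter, a filter at 5 FPKM, 2 scalings, a fit that leaves out each library, a replicate block and robust settings off. Members and lists were chosen with earlier results of these data known. Named were all members, up to 4 called genes with the smallest p in each list (or up to 2 where none was called), genes overlapping a member and the 3 nearest patterns. Coordinates are from GENCODE release 29. Python 3.11.15 with pandas 2.3.3 and matplotlib 3.10.9 made the tables and figures.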

Additional observations from a re-analysis of the deposited data

How the results depend on the processing

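The count of members that fell was 3 with all libraries and stayed at 3 with the other pseudocount, the filter at 5 FPKM (PPP1R15A in place of CHAC1, which that filter removed), either scaling, robust settings off and the replicate block. It was 0 by limma with no filter on low values, where 6 members and 4351 of the 26938 genes tested had an unadjusted p below 0.05. Genes changed numbered 833, against 17 with no filter, 452 after median-ratio scaling, 371 after upper-quartile scaling and 391 to 2610 without a library. List genes changed numbered 29, against 1 with no filter, 17 and 19 after the scalings and 13 to 51 without a library. The cause of these shifts was not tested. With the replicate block 563 genes, 3 members and 20 list genes changed. Same-numbered libraries had a correlation of deviations of -0.147, so a crossed replicate block was added after the data were seen, with 1954 genes and 6 members changed. Of 119 alternative values of single members, 107 kept their direction and side of the threshold, 9 passed newly, 3 no longer passed and 0 changed sign. Only the scalings could have changed a sign, because the groups of every member did not overlap. The depth is unknown, so the counting error of low members such as CHAC1 cannot be given.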
